A study of Rattus norvegicus with 2 samples.

Results

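The proteasome and immunoproteasome genes were followed on 2 Affymetrix expression arrays of rat microglia, which are macrophages that live in brain tissue. A gene was included when the platform annotation gave a probe set that gene alone and its symbol began with Psma, Psmb, Psmc, Psmd, Psme, Psmf or Psmg and a number. This gave 60 of 20826 probe sets that name 1 gene, or 46 of 14217 genes. The resting group was 1 array of cells from Sprague Dawley rats kept in DMEM with fetal calf serum and not exposed further. The OGD group was 1 array of the same kind of cells after 3 h of oxygen-glucose deprivation, a culture model of ischaemia in which oxygen and glucose are withheld. Both groups were bulk cultures, and how many animals or cultures went into each is not given in the sources used here. With 1 array per group there was no replicate, so the differences describe these 2 arrays, with neither a test nor a spread between cultures.

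The proteasome is the barrel-shaped protease that degrades ubiquitin-tagged proteins in the cytosol and nucleus. Its core particle is built from rings of alpha and beta subunits, and a few of the beta subunits cut the substrate. The regulatory particle caps the barrel, recognises and removes ubiquitin, and unfolds the substrate with a ring of ATPases, while other caps, called activators, open the core without ATP. In the immunoproteasome, which immune cells carry and which interferon gamma induces, Psmb8, Psmb9 and Psmb10 take the places of the catalytic subunits Psmb5, Psmb6 and Psmb7 and favour peptides suited to presentation on MHC class I molecules. Microglia are among the brain cells known to make it on activation.

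Of the 46 genes, 44 were measured, meaning that their brightest probe set lay above the array median of 19.6 (resting) or 19.7 (OGD) intensity units on at least 1 array. All 44 were above it on both. Psma3 and the chaperone gene Psmd5 lay under it on both arrays and are given no difference. The genes fell into 12 of the constitutive core, 3 of the immunoproteasome, 17 of the regulatory particle, 3 activators, 1 inhibitor, 6 assembly chaperones and 2 interacting proteins. Differences are log2 OGD minus log2 resting. Of the 44, 0 differed by 1.5-fold, the size named in the series' design text, where 0.115% of all 9580 measured genes did (0.0731% higher, 0.0418% lower). In all, 28 were lower on the OGD array, 15 higher and 1 equal, with a median of -0.10, while 51.3% of all measured genes were lower and 42.8% higher, and their median was -0.0076. At 1.2-fold 3 members were lower and 1 was higher, against a background of 3.97% and 3.56% of all measured genes.

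**Figure D1:**
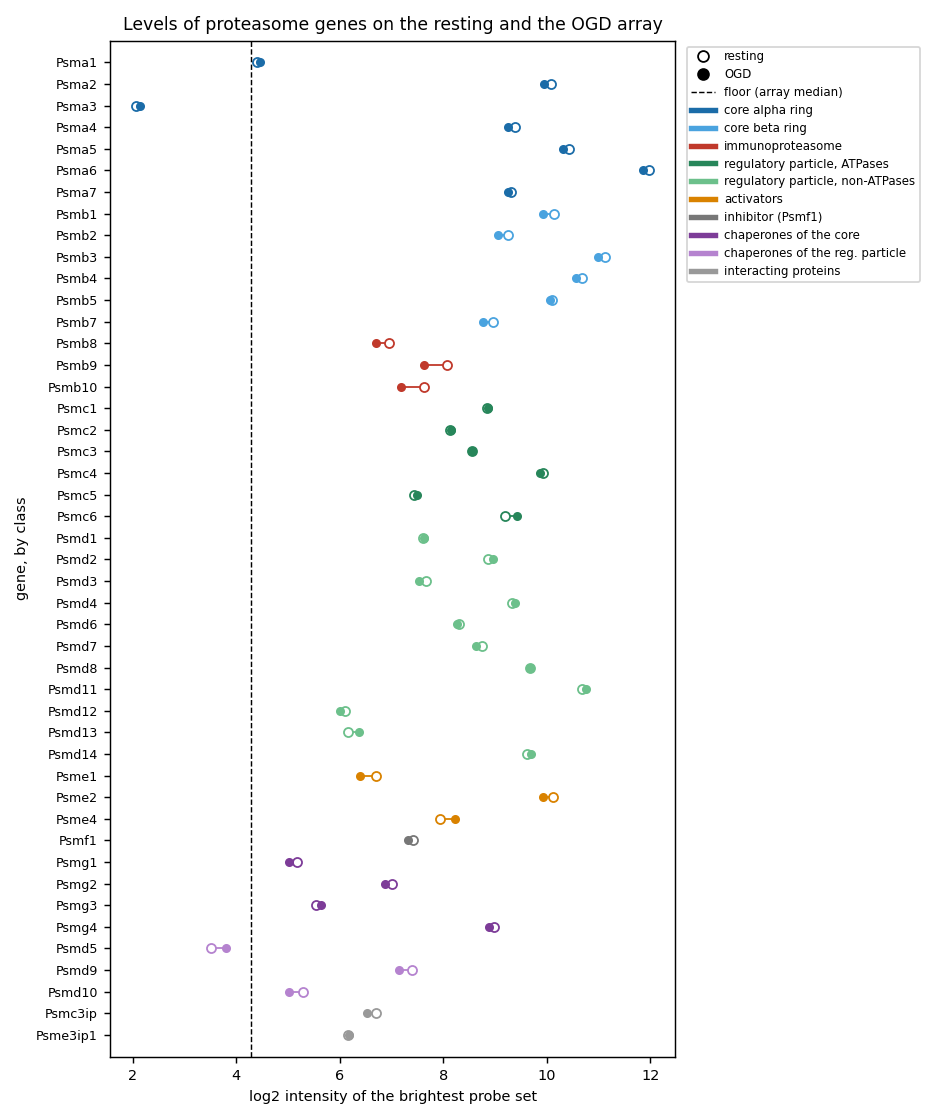
Log2 intensity of the brightest probe set (x axis) of each of the 46 genes (y axis, by class) on the resting array (open points) and the OGD array (filled points), with the array median as a dashed line. The filled point lies left of the open one for all 3 immunoproteasome genes and for 11 of 12 measured core genes; the distance between genes is not a comparison of transcript amounts, since probes differ.

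The immunoproteasome genes had the lowest median of the classes. Psmb9 had an intensity of 269.2 at rest and 199.2 after OGD, 1.35-fold lower with a log2 difference of -0.43. Psmb10 had 197.7 and 146.5, also 1.35-fold lower with a log2 difference of -0.43. Psmb8 had 124.0 and 104.3, 1.19-fold lower with a log2 difference of -0.25. All 3 were thus lower on the OGD array, Psmb9 and Psmb10 past 1.2-fold and Psmb8 just short of it, and the median of the class was -0.43. Only 0.355% of all measured genes had a difference as low as that of Psmb9 or lower, 0.376% as low as that of Psmb10 and 4.83% as low as that of Psmb8. Among the 3084 measured genes in the same bracket of brightness (mean log2 intensity from 6 to 8), 3 were at or below Psmb9, itself included, and 4 at or below Psmb10. Each of the 3 genes has 1 probe set, so no second probe set shows the same transcript. The spread between probe sets of 1 gene, the one error these arrays can give, was an SD of 0.15 in log2 difference over 1902 genes. The differences of Psmb9 and Psmb10 were 2.95 and 2.94 times this SD, and that of Psmb8 was 1.70 times it. Against the larger SD of 0.18 over the 8 member genes that have several such probe sets, these were 2.37, 2.37 and 1.37 times. The differences of all 9168 genes above the array median on both arrays had an SD of 0.148. That is about the spread between probe sets of 1 gene (0.147), so a multiple of either SD places a gene among all genes in much the same way. The value of Psmb9 carries a further limit, since its intensities differ by a whole number (-70.0, to within 1e-06), as do those of 457 probe sets (1.47%). How such values arose is not given in the sources used here, and their bearing on the difference was not tested. The SD between probe sets leaves out noise shared by all probe sets of an array and the spread between cultures. Microglial markers were lower after OGD as well, 11 of 11 with a median of -0.096, where 51.3% of all measured genes were lower. In RNA from whole cultures, fewer cells that express a gene and less RNA per cell cannot be told apart.

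Each immunoproteasome gene was further below its resting value than the catalytic subunit it replaces. The constitutive subunit Psmb5 had 1102 at rest and 1063 after OGD, a log2 difference of -0.052, so that Psmb8 was 0.20 further down on the log2 scale. Psmb7 had 500.1 and 438.2, a log2 difference of -0.19, which Psmb10 passed by 0.24. Psmb6 was seen only through a probe set that also names the near-identical copy Psmb6l1, with 3564 and 3394 and a log2 difference of -0.071, which Psmb9 passed by 0.36. The direction was the same in all 3 pairs, but the class values had already fixed it. The highest immunoproteasome difference (-0.25) was below the lowest core difference (-0.20), so a pairing with any measured core gene gives this direction. A gap between 2 probe sets would have an SD of 0.21 from the spread over all genes and of 0.26 from that over the members. The pair of Psmb9 exceeded both, that of Psmb10 only the first, and that of Psmb8 neither.

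The start regions of these genes are shown because interferon-regulated motifs in them are the textbook route to immunoproteasome expression, and those of both genes of the interferon-inducible activator, Psme1 and Psme2, and of the constitutive Psmb5 are set beside them. Sequences are the 250 bases before the transcript start, 5′ to 3′ on the strand of the gene, from RefSeq (build GRCr8). They lie at chr20:4657032-4657281 (minus strand) for Psmb8, chr20:4668750-4668999 (plus) for Psmb9, chr19:50743293-50743542 (minus) for Psmb10, chr15:33038721-33038970 (plus) for Psme1, chr15:33052752-33053001 (minus) for Psme2 and chr15:32047380-32047629 (minus) for Psmb5. Capitals mark matches, on either strand, to the interferon-stimulated response element core (GAAA, any bases NN, and GAAA again), the gamma-activated site TTCNNNGAA, or the antioxidant response element core TGACNNNGC, the last of which is bound by the factors Nfe2l1 and Nfe2l2.
Psmb8: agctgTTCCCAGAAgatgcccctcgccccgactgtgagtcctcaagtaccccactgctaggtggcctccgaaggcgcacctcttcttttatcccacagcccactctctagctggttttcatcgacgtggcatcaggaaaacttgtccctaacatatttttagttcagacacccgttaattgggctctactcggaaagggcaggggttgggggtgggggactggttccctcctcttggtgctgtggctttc
Psmb9: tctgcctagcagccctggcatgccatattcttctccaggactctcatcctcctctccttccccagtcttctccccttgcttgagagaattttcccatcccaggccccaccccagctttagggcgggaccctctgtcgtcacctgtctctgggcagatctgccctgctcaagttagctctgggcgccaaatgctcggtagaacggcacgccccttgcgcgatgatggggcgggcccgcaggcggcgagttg
Psmb10: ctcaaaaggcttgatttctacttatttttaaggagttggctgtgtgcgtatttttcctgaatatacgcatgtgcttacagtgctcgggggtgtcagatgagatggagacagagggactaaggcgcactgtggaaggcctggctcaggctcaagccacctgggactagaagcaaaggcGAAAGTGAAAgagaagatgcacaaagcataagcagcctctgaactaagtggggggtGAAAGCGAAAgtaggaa
Psme1: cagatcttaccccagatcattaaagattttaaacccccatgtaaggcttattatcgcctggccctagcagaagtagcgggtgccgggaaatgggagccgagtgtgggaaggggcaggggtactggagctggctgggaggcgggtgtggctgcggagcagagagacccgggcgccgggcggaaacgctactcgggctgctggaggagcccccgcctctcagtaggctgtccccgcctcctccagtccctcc
Psme2: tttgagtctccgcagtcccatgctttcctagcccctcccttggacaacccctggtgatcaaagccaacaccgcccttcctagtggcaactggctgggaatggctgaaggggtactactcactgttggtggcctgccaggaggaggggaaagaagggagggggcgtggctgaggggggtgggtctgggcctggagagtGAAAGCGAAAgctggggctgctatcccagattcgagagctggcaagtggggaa
Psmb5: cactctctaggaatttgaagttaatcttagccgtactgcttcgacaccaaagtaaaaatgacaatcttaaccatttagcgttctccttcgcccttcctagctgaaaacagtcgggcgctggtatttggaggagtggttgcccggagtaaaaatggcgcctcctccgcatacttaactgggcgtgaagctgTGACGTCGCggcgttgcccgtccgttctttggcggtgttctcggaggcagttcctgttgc

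Psmb10 held the interferon-stimulated core at 2 places, 73 to 64 and 17 to 8 bases before the start, and Psme2 held it 53 to 44 bases before the start. The core was found in 3.41% of all 33469 promoter windows of this length and in 5 of the 42 members that have one in the table, the others being Psma4, Psmb3 and the regulatory particle gene Psmd7. Psmb8 held a gamma-activated site 245 to 237 bases before the start, a motif found in 7.67% of all windows and in 4 of 42 members (also Psmc6, Psmd3 and Psmd7). The windows of Psmb9 and Psme1 held no match to any of the 3 motifs. Psmb9 lies head to head with the peptide transporter gene Tap1, with 457 bases between their starts, and the window of Tap1 held the interferon-stimulated core 121 to 112 bases before its own start. The antioxidant core was found in 10.1% of all windows and in 6 of 42 members, Psma3, Psmb2, Psmb5, Psmd1, Psmd9 and Psme4. All 5 members with the interferon-stimulated core were lower on the OGD array, beside 28 of all 44 measured members. Among them, Psma4 and Psmb3 belong to the constitutive core, where 11 of 12 measured genes were lower, and Psmb10 to the immunoproteasome, where all 3 were. The count thus overlaps with class, and a link between motif and direction was not tested. Outside the members, the window of Tap2 held this core as well, 41 to 32 bases before its start. Tap1 was lower on the OGD array (log2 difference -0.033) and Tap2 was higher (0.073). Of the 5 measured members with the antioxidant core 3 were lower and 2 higher, and of the 4 with the gamma-activated site 3 were lower and 1 higher. A match is a description of the letters, not a bound site.

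The constitutive core was lower on the OGD array almost throughout, by small amounts. Of 12 measured genes 11 were lower and 1 was higher, where 51.3% of all measured genes were lower. The median log2 difference was -0.12, with a range from -0.20 to 0.066. In the beta rings, which hold the catalytic sites, all 6 measured genes were lower, with a median of -0.16. Psmb1, a structural beta subunit, had 1129.5 at rest and 980.6 after OGD, a log2 difference of -0.20. Psmb2 had 606.3 and 531.4, a log2 difference of -0.19. Both were lower by about as much as the catalytic Psmb7, and Psmb3 (2224 and 2023, log2 difference -0.14) and Psmb4 (1636 and 1521, log2 difference -0.10) by less. In the alpha rings, which gate the entry to the barrel, 5 of 6 measured genes were lower, with a median of -0.11. Psma6, the brightest of the alpha probe sets, had 4049 and 3729, a log2 difference of -0.12. Psma4 had 667.9 and 606.3, a log2 difference of -0.14, and the values of Psma2 (1078 and 984.5), Psma5 (1372 and 1271) and Psma7 (636.5 and 608.9) differed by -0.13, -0.11 and -0.064. The exception was Psma1, just above the array median at 21.2 and 22.2, with a log2 difference of 0.066. None of the core genes passed 1.2-fold, and 9 of the 12 differences lay within the probe set SD of 0.15, so that the class shared a sign rather than a large difference in any gene. That SD is taken over probe sets of all brightness, while most core probe sets were bright. Among measured genes of the same brightness bracket, the share at or below the core gene ran from 1.56% for Psmb1 to 66.6% for Psma1. Psma3, which had no measured probe set of its own, had 2907 and 2733 in a probe set that also names its copy Psma3l, a log2 difference of -0.089.

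The regulatory particle did not share that sign. Of 17 measured genes 11 were higher on the OGD array, 5 were lower and 1 was equal, where 42.8% of all measured genes were higher. The median log2 difference was 0.022, with a range from -0.13 to 0.23. Apart from Psmc6 and Psmd13 (0.21), every difference in the class lay within the probe set SD of 0.15, so most of these signs rest on small differences. In the ATPase ring, which unfolds substrates, Psmc1 had 463.0 and 466.7 (log2 difference 0.011) and Psmc2 had 280.5 and 285.1 (0.023). Psmc3 had 378.8 on both arrays, exactly equal, Psmc4 had 970.5 and 939.4 (-0.047) and Psmc5 had 174.3 and 181.1 (0.055). These 5 genes stayed close to 0. Psmc6 had 583.4 at rest and 683.6 after OGD, 1.17-fold higher with a log2 difference of 0.23; its other 2 probe sets lay under the array median, at 5.56 and 6.35 at rest, with log2 differences of -0.028 and -0.20. With the mean over all its probe sets, these included, the difference of Psmc6 was 0.00015.

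Among the non-ATPase subunits, 7 of 11 were higher on the OGD array and 4 lower, with a median of 0.022. Psmd13, of the lid, had 71.5 at rest and 82.5 after OGD, a log2 difference of 0.21. The large scaffold subunits Psmd1 (195.9 and 198.9) and Psmd2 (465.0 and 495.9) differed by 0.022 and 0.093. Psmd4, a ubiquitin receptor, had 642.6 and 669.7, a log2 difference of 0.060, and Psmd14, the deubiquitinase of the lid, had 783.2 and 827.7, a log2 difference of 0.080. Lower after OGD were the lid genes Psmd3 (202.9 and 185.8, log2 difference -0.13), Psmd12 (69.1 and 64.3, -0.10), Psmd7 (428.1 and 399.1, -0.10) and Psmd6 (314.5 and 306.8, -0.036). Psmd11 (1649.6 and 1738) and Psmd8 (821.6 and 823.8) differed by 0.076 and 0.0039. Subunits of the lid thus lay on both sides of 0.

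**Figure D2:**
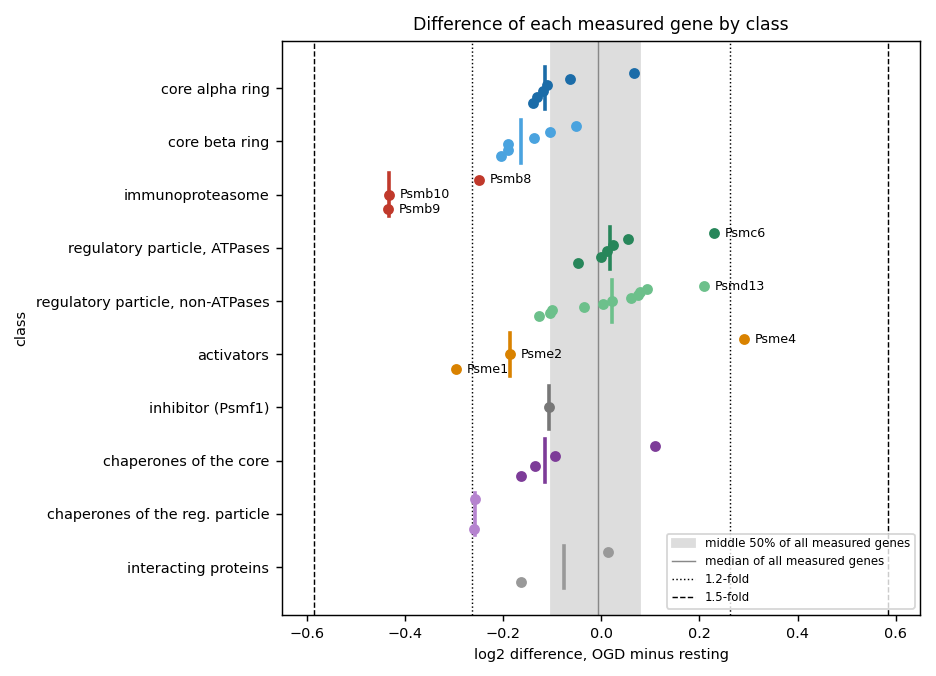
Log2 difference, OGD minus resting (x axis), of the 44 measured genes by class (y axis); each point is a gene, the short bar is the median of the class, and the grey band holds the middle 50% of all measured genes. The 12 core genes lie mostly left of the band, the 17 regulatory particle genes mostly inside or right of it, Psmb9 and Psmb10 lie left of the 1.2-fold line, and no point reaches the 1.5-fold line.

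The contrast between core and regulatory particle was also seen against the spread of all genes. Below the lower quartile of all measured genes (-0.10) lay 9 of 12 core genes, all 3 immunoproteasome genes and 2 of 17 regulatory particle genes. Above the upper quartile (0.079) lay 0 core and 4 regulatory particle genes, Psmc6, Psmd13, Psmd2 and Psmd14. Psmd14 was only just past it (0.080), and its other probe sets were lower on the OGD array (-0.076 and -0.23). With the mean over all its probe sets, those under the array median included, Psmc6 was at 0.00015. Brighter probe sets were lower on the OGD array in general: the median over all measured genes was 0 below a mean log2 intensity of 6, -0.018 from 6 to 8, -0.038 from 8 to 10 and -0.035 at 10 or more. Within the bracket from 8 to 10, where both classes had members, 4 of 4 core genes were lower with a median of -0.16, and 3 of 11 regulatory particle genes were lower with a median of 0.011, while 62.5% of all 946 measured genes there were lower. At 10 or more, 7 of 7 core genes were lower, against 67.0% of all 321 measured genes, and the 1 regulatory particle gene there, Psmd11, was higher. Measured from the median of its bracket, the core had a median of -0.089, the immunoproteasome -0.41 and the regulatory particle 0.049. Genes of 1 complex on 1 pair of arrays are not independent replicates, so these counts carry no test of the difference between the classes.

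**Figure D3:**
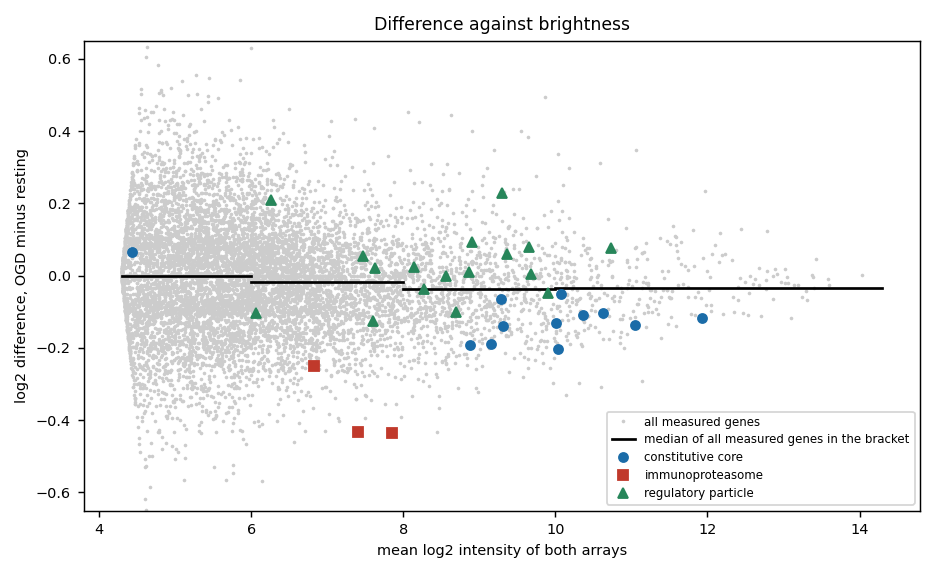
Log2 difference, OGD minus resting (y axis), against the mean log2 intensity of both arrays (x axis) for all measured genes (grey; 6 genes beyond 0.65 in either direction are outside the plot) with the median of each brightness bracket as a black line. The 11 lower core genes (blue) lie below the line of their bracket, the 3 immunoproteasome genes (red) lie below it at medium brightness, and 13 of 17 regulatory particle genes (green) lie on or above it.

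The activators went in both directions. Psme1 and Psme2 encode the subunits of the interferon-inducible activator ring that caps immunoproteasomes. Psme1 had 103.9 at rest and 84.6 after OGD, 1.23-fold lower with a log2 difference of -0.30, and Psme2 had 1110.2 and 975.5, a log2 difference of -0.19. Psme4, an activator found mainly in the nucleus, had 245.2 and 300.1, 1.22-fold higher with a log2 difference of 0.29. Both genes past 1.2-fold had another probe set of the opposite sign: the second one of Psme1 had 78.9 and 86.1, a log2 difference of 0.12, and the second one of Psme4 had 52.7 and 50.005, a log2 difference of -0.076. Psme2 has 1 probe set. With the mean over all probe sets of each gene the differences of Psme1 and Psme4 were -0.086 and 0.10. Psme3, the nuclear relative of Psme1, was seen only through 4 probe sets that also name Aoc3 and G6pc1, with log2 differences of -0.097, 0.060 and 0 in the 3 that lay above the array median on both arrays. The inhibitor gene Psmf1 had 171.5 and 159.4, a log2 difference of -0.11.

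Of 6 measured assembly chaperone genes, which encode helpers that leave or are degraded once the particle is built, 5 were lower on the OGD array and 1 was higher, with a median of -0.15. Psmd9 had 168.1 and 140.8, a log2 difference of -0.26, and Psmd10 had 38.9 and 32.5, also a log2 difference of -0.26. Both assist the ATPase ring of the regulatory particle, and both lay just inside 1.2-fold. The second probe set of Psmd9, at 36.8 and 39.6, had a log2 difference of 0.11 in the other direction, and with the mean over both the difference was -0.075. Among chaperones of the core, Psmg1 had 36.3 and 32.4 (log2 difference -0.16), Psmg2 had 129.3 and 117.8 (-0.14) and Psmg4 had 507.8 and 475.6 (-0.095). Psmg3 was the exception, with 46.5 and 50.1 and a log2 difference of 0.11. Of the interacting proteins that carry a proteasome symbol, Psmc3ip, which acts in meiotic recombination, had 103.9 and 92.7, a log2 difference of -0.16, and Psme3ip1 had 71.5 and 72.2, a log2 difference of 0.013.

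Several probe sets above the array median on both arrays were available for 8 of the 44 genes, and they gave both signs in 6 of them. Besides Psme1, Psme4 and Psmd9, these were Psmb5 (-0.052 in the brightest and 0.15 in another), Psmc4 (-0.047 and 0.077) and Psmd14 (0.080, -0.076 and -0.23). The probe sets shared a sign for Psmd7 (-0.10 and -0.045) and Psmd11 (0.076 and 0.035). The SD between probe sets was 0.18 over these 8 genes. The differences of 31 of the 44 measured members were smaller than this. Among those that exceeded it, Psmb8, Psmb9 and Psmb10 have no second probe set, and neither do Psmb1, Psmb2, Psmb7, Psmd10, Psmd13 and Psme2.

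**Figure D4:**
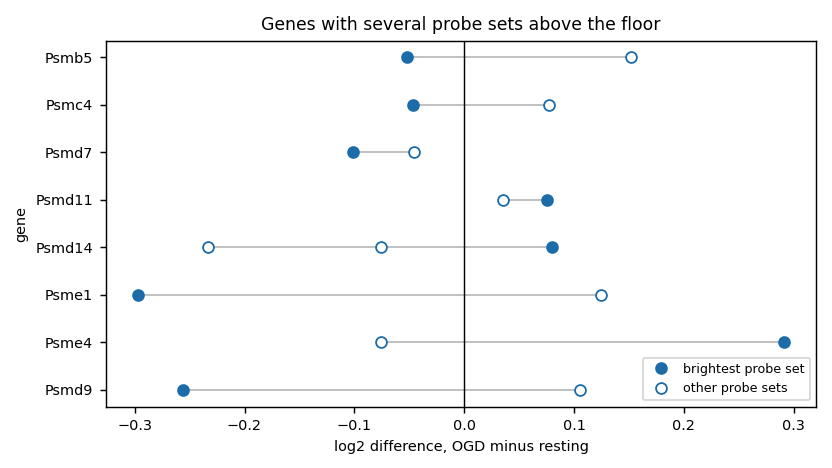
Log2 difference, OGD minus resting (x axis), of each probe set above the array median on both arrays for the 8 member genes that have several (y axis); filled points are the brightest probe set, open points the others. The points lie on both sides of 0 for 6 genes, and on 1 side for Psmd7 and Psmd11.

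Other genes of the pathway were described in 3 lists, each without a test. Of 18 proteins associated with the proteasome 14 were measured, of which 9 were higher and 5 lower on the OGD array, with a median log2 difference of 0.015 and 0 past 1.5-fold. Pomp, the chaperone that matures the core, had 526.0 and 528.9 (0.0080), the ubiquitin receptor Adrm1 had 720.2 and 704.2 (-0.032), and the deubiquitinase Usp14 had 1469.9 and 1492 (0.022). These cofactors thus stayed close to 0. Ube3a, a ubiquitin ligase, had 343.1 and 425.5, a log2 difference of 0.31 that was shared by 2 of its other 3 probe sets (0.37 and 0.30, against -0.10). Akirin2, which helps to import proteasomes into the nucleus, was near the array median at 27.0 and 21.1, a log2 difference of -0.36.

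Of 17 genes that control proteasome genes or unfold substrates 13 were measured, with 5 higher, 7 lower and 1 equal and a median of -0.0031. Nfe2l1, the factor that raises proteasome genes when the protease is impaired, had 156.9 and 161.9, a log2 difference of 0.046, and 0.39 in a dimmer probe set (46.0 and 60.2). Nfe2l2, its oxidant-responsive relative, had 389.7 and 383.6 (-0.023), and the unfoldase Vcp had 1123 and 1136 (0.016). The list lay around 0, with Nploc4, a cofactor of Vcp, lowest at -0.23 in its brighter probe set and at 0.013 in the other. Of 24 genes of class I antigen processing and the interferon gamma response 16 were measured, 11 higher and 5 lower, with a median of 0.062. Of all measured genes 42.8% were higher and 51.3% lower. Tap1, the neighbour of Psmb9, had 58.9 and 57.6, a log2 difference of -0.033, and Tap2, next to Psmb8 in the same stretch of the MHC region, had 71.9 and 75.7, a log2 difference of 0.073. Neither was lower to the extent of Psmb8 and Psmb9. Tapbp (22.1 and 23.7, log2 difference 0.10), B2m (19.8 and 21.7, 0.13) and the interferon-induced factor Irf1 (23.7 and 23.8, 0.0024) were close to the array median. The kinase gene Jak2 was lower (38.0 and 27.3, log2 difference -0.48) and the receptor gene Ifngr2 was higher (25.7 and 36.9, log2 difference 0.52), both at low intensity. The list was mixed, with Stat2 higher (0.21) and Socs1 lower (-0.17), so its median does not stand for each gene in it. That median was above 0, while Psmb8, Psmb9, Psmb10 and Psme2 were lower, as was Psme1 in its brighter probe set only (0.12 in the other).

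Markers of the labelled cell type were lower on the OGD array beside the immunoproteasome and core genes. Of 12 microglial markers 11 had a probe set, and all 11 were measured, among them Trem2 at 604.2 and 582.6, Cd68 at 370.7 and 359.7 and Aif1 at 48.3 and 47.0. All 11 were lower, where 51.3% of all measured genes were, with a median of -0.096 and a range from -0.26 to -0.010. Their summed intensity was 1337 at rest and 1275 after OGD. Some lay near the array median, such as Csf1r (21.9 and 19.3, under it on the OGD array) and Tmem119 (23.3 and 23.1). Measured markers of other cells were 2 of 6 for astrocytes, 1 of 5 for neurons, 2 of 5 for oligodendrocytes and 1 of 5 for fibroblasts. Outside the astrocyte list, Syn1, Mbp and Col1a1 were higher on the OGD array (log2 differences 0.24, 0.23 and 0.21) and Sox10 was lower (-0.076). Gfap (27.4 and 36.9) and Slc1a2 (23.8 and 32.0) were each 1.35-fold higher on the OGD array, while Aqp4, Aldh1l1, Slc1a3 and S100b were under the array median, and the summed intensity of the astrocyte list was 95.5 and 115.3. The part of these shifts in the proteasome values was not tested.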

How the data were processed

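Total RNA was extracted with TRIzol, reverse transcribed from an oligo(dT) primer and labelled with biotin, per the labels' protocols. Deposited were linear-scale intensities with a single value for each probe set of an array; how the authors corrected, summarised and normalized them is not given in the sources used here. Nearly equal quartiles (8.45 and 48.2 at rest, 8.47 and 48.0 after OGD) mean that a shift shared by most genes could not be seen. Of 31042 probe sets besides 57 controls, 9780 were unnamed and 436 named several genes in the platform annotation, and both were left out. Each gene was represented by its brightest probe set over both arrays. Values under the median of the array were set to that median (the floor), and log2 OGD minus log2 resting was taken, with counts at 1.5-fold and 1.2-fold. Groups came from the labels, and with 1 array per group no test was made; the number of arrays limits the precision. All members could be named. Other genes were named by absolute difference, up to 4 per list, with 12 more named in the rule. Trem2, Cd68, Aif1, Csf1r, Tmem119, the measured markers of other cells and the astrocyte markers under the floor were picked after their values were seen. Members, classes, lists and motifs were chosen with earlier results of these data known. Alternatives in floor, pseudocount, normalization and probe sets were computed in Python 3.11.15 with pandas 2.3.3 and statsmodels 0.14.6. The calculation was tested on simulated data. Promoter windows were matched to 42 of 46 members by gene ID.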

Additional observations from a re-analysis of the deposited data

How the results depend on the processing

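Results were recomputed under 10 alternatives in floor, pseudocount, normalization and probe sets, and a few more in threshold and members. The count past 1.5-fold stayed at 0 in each, and was 4 at 1.2-fold. The median log2 difference of all members was -0.10, and -0.050 after quantile normalization, -0.069 after removal of a loess trend and -0.076 over probe sets in place of genes. That of the activators was -0.19, and -0.086 with the mean over probe sets; the cause of these moves was not tested. None of these medians changed sign, nor did those of the other classes, with ranges of -0.13 to -0.087 for the core, -0.44 to -0.40 for the immunoproteasome, 0.011 to 0.051 for the regulatory particle and -0.15 to -0.11 for the chaperones. Adding Psma3 and Psmb6 from probe sets that also name a copy, chosen after seeing the data, gave 13 lower and 1 higher core gene. Of 44 single genes 5 moved by more than the probe set SD, all with the mean over probe sets: Psmc6 to 0.00015, Psmd9 to -0.075, Psme1 to -0.086, Psme4 to 0.10 and Psmd14 to -0.076. With that mean 3 changed sign, Psmb5 to 0.059, Psmc4 to 0.015 and Psmd14 to -0.076. No paired analysis was possible because each group has 1 array. No replicate could be left out for the same reason. Signal near the array median limits Psma1, Psmg1 and Psmd10.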

Other observations

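The deposited values carry a pattern of shared decimals. The 2 arrays were exactly equal in 2701 probe sets, 8.70% of those besides controls, and differed by a nonzero whole number (to within 1e-06) in 457 (1.47%). Among the 60 member probe sets that of Psmc3 was equal on both arrays, and that of Psmb9 differed by a whole number, the OGD value minus the resting value being -70.0. Outside the members, the values of Cd68 (370.665 at rest and 359.665 after OGD) and Adrm1 (720.165 and 704.165) also shared the decimals shown. How such values arose is not given in the sources used here.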
